A study of Mus musculus with 6 samples.

Results

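Steroid hormones act on the developing brain through a small set of autosomal genes, and the levels of 10 of them in male and female brain at E15.5 (days of embryonic development) are described here. These are the nuclear receptors Esr1, Esr2, Pgr, Nr3c1 and Nr3c2, the steroid enzymes and carrier Cyp19a1, Srd5a1 and Star, and the coactivators Ncoa1 and Ncoa2. They were chosen by name, as the autosomal genes that show which hormone signals the tissue could make or receive. The count tables held 11 transcript IDs of these 10 genes, out of 23485 IDs and 20937 gene symbols in all. Of the 10 genes, 7 had enough counts to be tested and 3 (Esr1, Esr2 and Cyp19a1) did not.

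Whole brains came from wild-type C57BL/6 embryos of that age. There were 3 samples of each sex, untreated and without a transgene, and the labels set the groups apart by sex only, which had been read from whether the gonads held testicular cords. The RNA of 2 or 3 embryos had been combined in every sample, so a value averages over a pool and variation among embryos inside it is not seen. The values are raw counts per RefSeq transcript ID from paired-end RNA-seq.

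Steroids are made from cholesterol, which the carrier protein Star brings into mitochondria, and are then converted from one active form into another by enzymes of the target tissue. Aromatase (Cyp19a1) turns testosterone into estradiol, and steroid reductase type 1 (Srd5a1) turns testosterone into dihydrotestosterone and progesterone into its reduced forms. The receptors wait in complexes with chaperones, bind DNA once they hold their hormone, and recruit coactivators such as Ncoa1 and Ncoa2, which help to open chromatin. In rodents the fetal testis secretes testosterone before birth, and conversion of that testosterone to estradiol within the brain is known for its part in masculinising some circuits.

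The promoters of these genes are of unlike kinds, which gives a view of the members that does not depend on the counts. A table of RefSeq promoters (assembly GRCm38.p6) matched 7 of the 10 genes, with 10 promoters in total. The bases upstream of the annotated start were searched on both strands for the estrogen receptor half-site GGTCA, for its palindrome GGTCANNNTGACC, for the glucocorticoid receptor half-site AGAACA and for its palindrome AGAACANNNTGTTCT. The palindromes contain the half-sites. Neither palindrome and no AGAACA was found in the 250 bases before the start of any of the 10 promoters. Over all 32851 promoters of the table, 0.0639% held the estrogen palindrome, 0.00913% held the glucocorticoid palindrome and 16.1% held AGAACA. The half-site GGTCA was present in 4 of the 10 promoters (40%), against 35.2% of all promoters. It occurred 2 times each in Nr3c2 and Esr2 and 1 time each in 2 of the 3 Cyp19a1 promoters. These are matches of letters only. The 250 upstream bases of 4 members follow, to show the range from a CpG-rich to a CpG-poor promoter, with GGTCA or its reverse complement in capitals.
Ncoa1 (chr12:4477183-4477432, minus strand): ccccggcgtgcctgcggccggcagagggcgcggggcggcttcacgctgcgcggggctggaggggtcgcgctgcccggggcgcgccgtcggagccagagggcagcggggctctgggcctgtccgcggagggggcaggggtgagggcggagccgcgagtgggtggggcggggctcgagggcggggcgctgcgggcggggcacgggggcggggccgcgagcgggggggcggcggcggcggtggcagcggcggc
Nr3c2 (chr8:76902080-76902329, plus strand): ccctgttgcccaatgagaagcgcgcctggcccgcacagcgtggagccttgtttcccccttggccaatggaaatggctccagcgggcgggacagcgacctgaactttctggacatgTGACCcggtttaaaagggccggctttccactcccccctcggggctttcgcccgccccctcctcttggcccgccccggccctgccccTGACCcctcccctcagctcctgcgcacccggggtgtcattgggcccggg
Esr2 (chr12:76177260-76177509, minus strand): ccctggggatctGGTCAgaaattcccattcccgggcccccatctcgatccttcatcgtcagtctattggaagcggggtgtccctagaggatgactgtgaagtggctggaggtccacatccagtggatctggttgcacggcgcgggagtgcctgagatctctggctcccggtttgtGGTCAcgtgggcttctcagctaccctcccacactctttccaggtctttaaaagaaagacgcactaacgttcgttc
Pgr (chr9:8899583-8899832, plus strand): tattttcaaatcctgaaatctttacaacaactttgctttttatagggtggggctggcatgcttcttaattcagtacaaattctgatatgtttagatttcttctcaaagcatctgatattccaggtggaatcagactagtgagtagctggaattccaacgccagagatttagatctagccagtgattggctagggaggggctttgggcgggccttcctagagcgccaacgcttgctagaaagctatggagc

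The Ncoa1 stretch was 85.6% G and C with 40 CpG dinucleotides, against a median of 52.4% and 6 over all promoters of the table. Srd5a1 (64.8%, 20 CpG), Nr3c2 (68.4%, 17 CpG) and Esr2 (56.4%, 12 CpG) were also rich in CpG. Pgr had 43.6% and 4 CpG. The 3 promoters of Cyp19a1 held 36.8%, 37.2% and 54.4% G and C with 2, 3 and 6 CpG, and the first 2 of these were the poorest of the 10. Esr1 had 4 and 7 CpG in its 2 promoters.

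Totals ranged from 4908565 to 10294443 counts per sample, and 3 counts, taken as the limit that a count of 0 allows, correspond to 0.291 to 0.611 CPM (counts per 1000000 of the library total). This limit covers counting error only. The sex markers fitted each label. Male sample 1 had the highest total but also the largest number of IDs at 0 (6743). Male sample 2 was next with 6280, and the remaining samples had 4120 to 5183. The tissue label was checked with marker lists, given as summed CPM. Neuron markers summed to 2895 to 4106 CPM and neural progenitor markers to 4069 to 4594 CPM, although Eomes, which defines intermediate progenitors, had at most 3 counts in any sample. Markers of tissues around the brain were detected as well. Meningeal and fibroblast markers summed to 18090 to 26410 CPM with all 10 detected at 10 or more counts in every sample, skeletal muscle markers to 4448 to 6594 CPM (7 of 10) and surface epithelium markers to 1422 to 2983 CPM (8 of 10). Erythroid markers summed to 632 to 1171 CPM. In these lists the sexes overlapped, whereas choroid plexus markers summed to 653 to 767 CPM in females and 781 to 975.3 CPM in males without overlap. Markers of gonad, adrenal and pituitary were low. Gonad and adrenal markers summed to 11.9 to 19.1 CPM, with 2 of 12 genes detected in every sample. In that list Hsd17b3, Insl3 and Mc2r were at 3 counts or fewer. Pituitary markers summed to 24.7 to 50.3 CPM (1 of 10 detected), with Gh, Lhx3 and Pomc among those at 3 counts or fewer. Otx2 of the choroid plexus list and Alas2 of the erythroid list were also at 3 counts or fewer. The limit on genes with several transcripts, given below, was not examined for single markers. The part of these other cells in the levels and sex differences below was not tested.

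The first question was which of these genes had a measurable transcript level at all. Levels are compared between genes as CPM per kb, that is CPM on TMM-scaled totals (scaled for library composition) divided by the length of the longest annotated transcript. Among the receptors, Nr3c1 was the most abundant, and among the remaining genes Ncoa1 matched it. Over the 6 samples the means were 35.0 ± 4.76 CPM per kb for Ncoa1, 31.8 ± 2.46 for Nr3c1, 11.9 ± 1.49 for Srd5a1, 7.12 ± 1.52 for Star, 4.37 ± 0.652 for Nr3c2, 3.36 ± 0.587 for Pgr and 0.786 ± 0.226 for Ncoa2 (SD, n = 6). The order was the same with the union of all annotated exons as length, but Pgr was then at 2.16 and Ncoa2 at 0.448 CPM per kb. Against the 12739 tested IDs with a length, Ncoa1 was above 82.1% and Nr3c1 above 80.1% of them, Srd5a1 above 58.3%, Star above 49.2%, Nr3c2 above 41.9%, Pgr above 38.5% and Ncoa2 above 18.9%. The 6 values of Ncoa1 and Nr3c1 overlapped, as did those of Nr3c2 and Pgr, and in both pairs 1 sample had the reverse order, so these neighbours were not separated beyond their spread on this length. With the union of exons as length, Nr3c2 and Pgr no longer overlapped (3.06 to 4.50 against 1.57 to 2.55 CPM per kb), and Ncoa1 was above Nr3c1 in 6 of 6 samples although their ranges still overlapped. The values of Star and Nr3c2 overlapped through the low Star value of male sample 1, but within each of the 6 samples Star was the higher, by 1.31 to 2.04 times. The steps from Nr3c1 to Srd5a1, from Srd5a1 to Star and from Pgr to Ncoa2 showed no overlap.

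**Figure D1:**
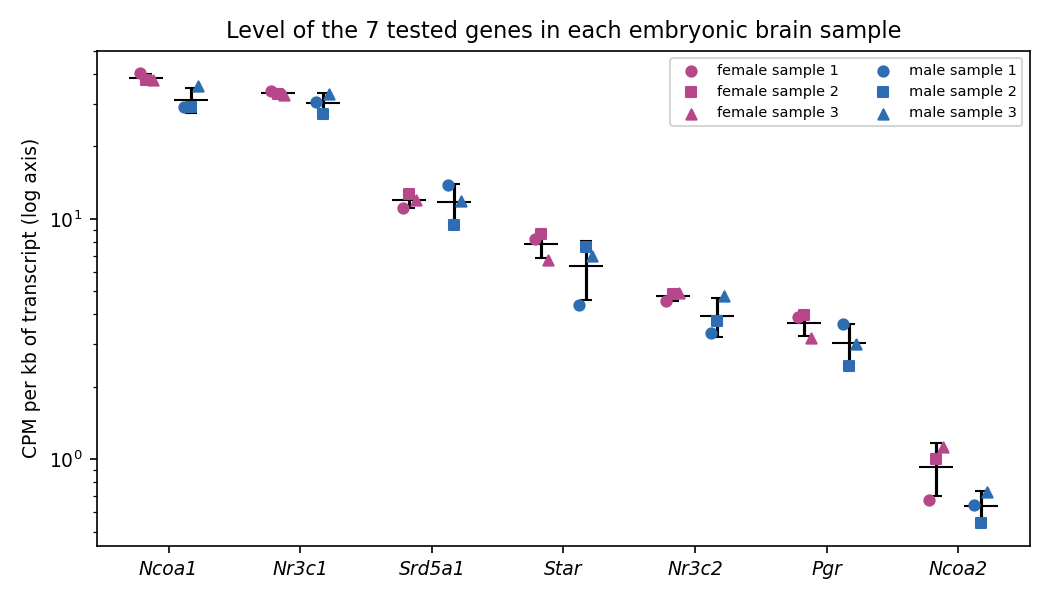
Level of the 7 tested genes in each sample, as CPM per kb of transcript on a log axis. Points are single samples (pink female, blue male), and black bars give the mean and SD of the 3 samples of each sex. Ncoa1 and Nr3c1 lie near 35.0 and 31.8 CPM per kb, and Ncoa2 lies near 0.786.

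The glucocorticoid receptor Nr3c1 (NM_008173; NCBIM37 chromosome 18, 39570199 to 39650955, minus strand), through which stress levels of corticosterone act, had 1352, 1066 and 2064 counts in the females, given in the order of samples 1, 2 and 3 here and below. The males had 1903, 1154 and 2138. The mineralocorticoid receptor Nr3c2 (NM_001083906; chromosome 8, 79423341 to 79768911, plus strand), which binds corticosterone with higher affinity, had 166, 144 and 286 counts in females and 192, 146 and 282 in males. Per kb and within each sample, Nr3c1 was 6.63 to 9.11 times as abundant as Nr3c2. The lowest ratio was in female sample 3 and the highest in male sample 1, and the sexes overlapped (6.98 ± 0.451 in females and 7.78 ± 1.16 in males, SD, n = 3). Exons of Nr3c2 share 247 nt with a predicted gene on the other strand, and since strand use in the counting is not stated, reads there may belong to either gene.

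The progesterone receptor Pgr (NM_008829; chromosome 9, 8900419 to 8965425, plus strand) was the one sex steroid receptor among the 10 genes with counts in every sample. Its counts were 74, 61 and 96 in females, and 108, 49 and 93 in males. Every sample was well above the limit of 3 counts, with male samples holding both the highest and the lowest count. Nr3c1 was 8.33 to 11.2 times as abundant per kb of the longest transcript.

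The estrogen receptors Esr1 and Esr2 were at or under the limit. Esr1 (chromosome 10, 5340927 to 5734948) was represented by a single non-coding ID, NR_126357, with 2 counts in female sample 3 and 0 in the other samples. Esr2 (chromosome 12, 77221406 to 77278246) was represented by NM_207707, with 2 counts in male sample 3 and 0 elsewhere. Aromatase, Cyp19a1 (chromosome 9, 54013744 to 54115917), had 2 IDs, of which NM_007810 was counted 1 time in female sample 1 and 2 times in female sample 3, and NM_001348173 was counted 2 times in female sample 2. No male sample had a count for Cyp19a1. None of these counts exceeded 3, so no fold is given between the sexes. The limit of 3 counts would be 0.0460 to 0.0964 CPM per kb for Esr1, 0.0867 to 0.182 for Esr2 and 0.123 to 0.258 for Cyp19a1.

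These limits hold for reads assigned to the listed IDs, and in these tables the counts of a gene moved with its number of transcripts. RefSeq lists 5 curated transcripts for Esr1, 3 for Esr2 and 4 for Cyp19a1, against 1 each for Pgr, Nr3c2, Srd5a1, Star and Ncoa1. Among 11458 protein-coding genes with 1 curated transcript, 26.3% stayed under 10 counts in every sample and the median of the mean counts was 121. Among 6140 genes with 2 or more, 48.6% stayed under 10 counts and the median was 5.17. Ddx5, an abundant RNA helicase picked here after its values were seen, has 3 curated transcripts and had at most 33 counts per sample and ID. Low counts of Esr1, Esr2 and Cyp19a1 and a loss of reads shared between their transcripts therefore cannot be told apart here. More transcripts did not always mean few counts, since Nr3c1 has 5 curated transcripts and Ncoa6, another coactivator, has 2 and had a mean of 736 counts. Transcript numbers are those of GRCm38.p6, a later annotation than the one that was counted.

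**Figure D2:**
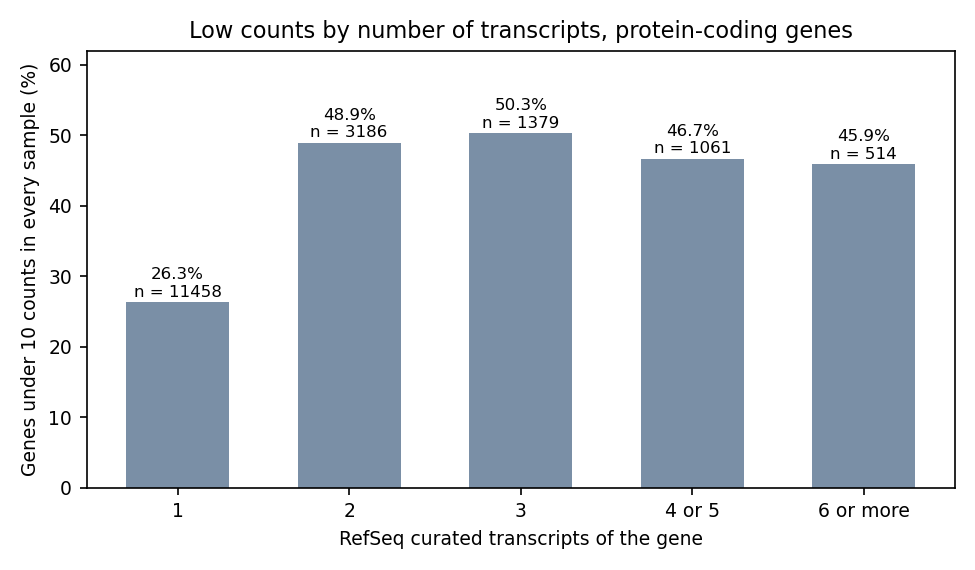
Share of protein-coding genes with fewer than 10 counts in all 6 samples, by the number of curated RefSeq transcripts of the gene, with the number of genes above each bar. The share is 26.3% for genes with 1 transcript and 45.9% to 50.3% for genes with more.

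Of Srd5a1, Star and Cyp19a1, the reductase Srd5a1 (NM_175283; chromosome 13, 69712327 to 69750320, minus strand) was the highest. Its counts were 182, 169 and 311 in females, and 355, 164 and 315 in males. In CPM these were 29.4, 33.7 and 31.7 in females and 36.7, 25.0 and 31.5 in males, so that the highest and the lowest value both fell in male samples. Its exons share 476 nt with a predicted gene on the same strand. Star (NM_011485; chromosome 8, 26918946 to 26925782, plus strand) had 142, 121 and 185 counts in females and 118, 140 and 196 in males. In CPM, Star was 23.0, 24.1 and 18.9 in females and 12.2, 21.4 and 19.6 in males, with male sample 1 well below the other 5. Srd5a1 exceeded Star per kb in each of the 6 samples, by 1.24 to 1.77 times in 5 of them and by 3.17 times in male sample 1.

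The 2 coactivators lay at opposite ends of the 7 levels. Ncoa1 (NM_010881; chromosome 12, 4247363 to 4484060, minus strand), also known as SRC-1, had 1828, 1391 and 2715 counts in females, against 2063, 1402 and 2611 in males. Ncoa2 (NM_008678; chromosome 1, 13129186 to 13364164, minus strand), also known as SRC-2, had 34, 41 and 90 counts in females and 51, 29 and 60 in males. Per kb of the longest transcript, Ncoa1 was 33.6 to 59.95 times as abundant as Ncoa2, and with the union of exons as length 59.05 to 105.2 times. Ncoa2 has 2 curated transcripts, so its level is subject to the limit on genes with several transcripts given above.

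The central comparison was between the sexes. With edgeR's quasi-likelihood test, 0 of the 7 tested IDs differed between male and female brains at an adjusted p under 0.05, where 0.0299% of all 13374 tested IDs did. DESeq2 called 0 of the 4 for which it gave an adjusted p, against 1.55% of all 6114 IDs with one (it gave none for Pgr, Star and Ncoa2). At an unadjusted p under 0.05 there was 1 of 7 (14.3%), against 11.5% of all tested IDs. Male and female CPM values were fully separate for 1 of 7 (14.3%), against 17.1% of all tested IDs, so both shares, resting on a single ID, were near the background. The median log2 fold change (male over female) of the 7 was -0.27, against -0.01 over all tested IDs, and all 7 fitted values were below 0. Without male sample 1 the median of the 7 was -0.16, and without female sample 3 it was -0.31. In bulk tissue, fewer cells that express a gene and less RNA per cell cannot be told apart.

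The gene with an unadjusted p under 0.05 was Ncoa1. Its values were 296, 277 and 277 CPM in females, against 213, 214 and 261 CPM in males. All females lay above all males, with male sample 3 closest to them. The means were 283 ± 10.8 CPM in females and 229 ± 27.3 CPM in males (SD, n = 3). The log2 fold change was -0.30 (SE 0.12, 95% interval -0.57 to -0.04), and the edgeR adjusted p of 0.385 did not pass (0.114 to 0.809 over the alternatives). Its unadjusted p was no longer under 0.05 without female sample 3, male sample 1 or male sample 2, where 16.1%, 9.49% and 8.94% of all tested IDs were under it. Ncoa2 had the lowest fitted value of the group. It had 5.50, 8.17 and 9.17 CPM in females and 5.27, 4.43 and 5.99 CPM in males, and female sample 1 lay among the males. Its log2 fold change was -0.54 (SE 0.30, 95% interval -1.19 to 0.11, edgeR adjusted p 0.501).

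For the receptors the values of the sexes overlapped. Nr3c1 was 214 ± 4.30 CPM in females and 195 ± 18.8 CPM in males (SD, n = 3), and male sample 3 lay within the female range. Its log2 fold change of -0.13 had, like that of Ncoa1, a narrow interval (SE 0.12, 95% interval -0.39 to 0.13, edgeR adjusted p 0.686), which corresponds to male levels of 0.766 to 1.09 times those of females. Nr3c2 was 28.2 ± 1.22 CPM in females and 23.4 ± 4.28 CPM in males, with male sample 3 again inside the female range and male samples 1 and 2 below it. Its log2 fold change was -0.27 (SE 0.18, 95% interval -0.66 to 0.12, edgeR adjusted p 0.571). Pgr was 11.3 ± 1.32 CPM in females and 9.31 ± 1.84 CPM in males, and its log2 fold change was -0.27 (SE 0.24, 95% interval -0.79 to 0.26, edgeR adjusted p 0.684). The interval of Pgr covers male levels from 0.579 to 1.19 times those of females.

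The enzyme and the carrier did not separate the sexes either. Srd5a1 was 31.6 ± 2.13 CPM in females and 31.1 ± 5.83 CPM in males (SD, n = 3), with a log2 fold change of -0.02 (SE 0.18, 95% interval -0.40 to 0.36, edgeR adjusted p 0.977). Star was 21.98 ± 2.77 CPM in females and 17.7 ± 4.86 CPM in males, with a log2 fold change of -0.31 (SE 0.23, 95% interval -0.80 to 0.18, edgeR adjusted p 0.600). Male sample 1 was the lowest for Star, and without it the log2 fold change was -0.10.

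Transcript length moved with the fitted values. Over all tested IDs the median log2 fold change was 0.13 for transcripts under 2 kb and -0.17 for those of 6 kb or more, and 0.11 and -0.10 without male sample 1. Ncoa2 (8171 nt), Ncoa1 (7328 nt) and Nr3c1 (6436 nt) are in the latter class and Nr3c2 (5916 nt) is just under it. When trends with length and GC content were removed from each sample, the log2 fold change of Ncoa2 was -0.31, that of Ncoa1 -0.09, that of Nr3c2 -0.10 and that of Nr3c1 0.10, in the other direction. Pgr (3068 nt) and Star (2787 nt) changed less, to -0.34 and -0.27. The median of the 7 was -0.10 in that fit, and 0 of them had an unadjusted p under 0.05, against 9.46% of all tested IDs.

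**Figure D3:**
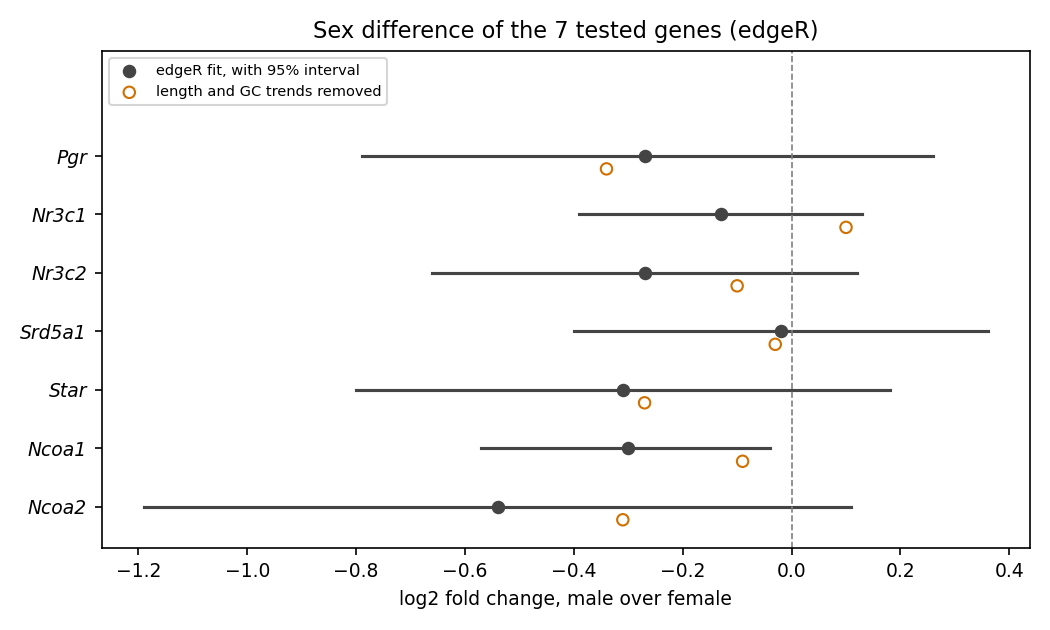
Log2 fold change of male over female for the 7 tested genes (filled points) with 95% intervals from edgeR (lines). Open points give the same value after removal of length and GC trends, which puts Ncoa1 at -0.09 and Nr3c1 at 0.10. The interval of Ncoa1 alone ends below 0.

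A further 6 lists placed these genes among others of the same pathway, with 75 distinct IDs tested. None of the 75 was called by edgeR, against the 0.0299% background. DESeq2 called 3 (Ddit4, Crebbp and Ncoa6) of the 36 for which it gave an adjusted p, or 8.33%, against 1.55% of all 6114 IDs with one. With 2 RUVr factors (estimates of unwanted variation), edgeR called those 3 and Esrra, 4 of 75 or 5.33%, against 3.55% of all tested IDs. There were 8 at an unadjusted p under 0.05 (10.7%, near the background of 11.5%), 4 higher in males and 4 higher in females. Other fits gave 5 of 75 with the replicate number as a block (6.67%, against 8.41% of all tested IDs), 5 of 74 without female sample 1 (6.76%, against 5.73%), 5 of 75 without female sample 2 (6.67%, against 5.61%) and 12 of 75 with 2 RUVr factors (16%, against 21.5%). The sexes did not overlap for 13 (17.3%, near the background of 17.1%), and the median log2 fold change was 0.05.

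Of other steroid-binding and estrogen-related receptors, 12 of 13 genes were in the tables and 7 IDs were tested, with a median log2 fold change of 0.13. At an unadjusted p under 0.05 there was 1 ID (14.3%, against 11.5% of all tested IDs). There were 2 with length and GC trends removed, where 9.46% of all tested IDs were under that threshold, and 2 without female sample 3, where 16.1% were. The most abundant were Pgrmc1, a heme-binding membrane protein also known as a progesterone receptor membrane component, at 258 ± 41.0 CPM per kb, and its relative Pgrmc2 at 34.0 CPM per kb. Pgrmc1 was thus above each nuclear receptor named here. Esrra, an orphan nuclear receptor known for control of mitochondrial genes, had an unadjusted p under 0.05 without passing the adjustment, with 22.1 ± 5.22 CPM in females and 33.6 ± 5.50 CPM in males (SD, n = 3; log2 fold change 0.59, SE 0.20, edgeR adjusted p 0.344).

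For steroid synthesis from cholesterol, 12 IDs were tested and 0 had an unadjusted p under 0.05 (median log2 fold change 0.21, and 0.08 with length and GC trends removed). Por, which passes electrons to cytochrome P450 enzymes, and Acbd3, a Golgi protein that binds Tspo, had the highest levels, at 53.1 and 38.6 CPM per kb. Enzymes that begin steroid synthesis were low. These were looked up after the counts had been seen. The side-chain cleavage enzyme Cyp11a1 had 5 to 24 counts per sample for NM_001346787 and 0 to 9 for NM_019779. It has 2 curated transcripts, so its level is subject to the limit on genes with several transcripts given above. Cyp17a1, which makes androgen precursors and has 1 curated transcript, had 7, 2 and 3 counts in females, against 22, 8 and 10 in males. No female sample reached 10 counts, so Cyp17a1 passed the filter through males alone and no fold is given. Male and female values overlapped once scaled to depth.

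For steroid conversion and inactivation, 14 IDs were tested, again with 0 at an unadjusted p under 0.05 (median log2 fold change 0.05, and -0.06 with length and GC trends removed). Without male sample 1 there were 3, where 9.49% of all tested IDs were under that threshold. Hsd17b10 and Hsd17b12, hydroxysteroid dehydrogenases that also serve fatty acid metabolism, were highest, at 89.5 and 67.8 CPM per kb. Of the other genes named as steroid reductases, Srd5a3 was at 12.1 ± 1.64 CPM per kb, close to Srd5a1, and Srd5a2 had 0 to 4 counts per sample. Transcript levels do not show how far each enzyme acts on steroids. Hsd11b2, which inactivates corticosterone, had 17 to 38 counts per sample. Srd5a2, Srd5a3 and Hsd11b2 were likewise picked after their values were seen.

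Of other coactivators and corepressors, 4 of 15 IDs (26.7%) had an unadjusted p under 0.05, against 11.5% of all tested IDs, and all 4 were higher in females. Of all tested IDs at that threshold, 893 were higher in males and 644 in females. Without male sample 1 this turned to 565 higher in males and 694 in females. The median log2 fold change of the list was -0.22, and with length and GC trends removed it was -0.10 with 3 IDs at that threshold, where 9.46% of all tested IDs were. Ncoa6 was 124 ± 33.1 CPM in females and 73.4 ± 10.7 CPM in males (SD, n = 3; log2 fold change -0.75, SE 0.19, edgeR adjusted p 0.338). The acetyltransferases Crebbp and Ep300, which steroid receptor coactivators bring to DNA, had log2 fold changes of -0.48 (SE 0.13, edgeR adjusted p 0.338) and -0.34 (SE 0.13, edgeR adjusted p 0.379). In all 3 genes the females lay above the males without overlap, which held for 4 of the 15 IDs (26.7%) against 17.1% of all tested IDs. The remaining ID of each count was from the corepressor Ncor1, but not the same ID. NM_177229 had the unadjusted p under 0.05, and NM_001252313 had no overlap of the sexes. Ncoa6, Crebbp and Ep300 have transcripts of over 7 kb. After removal of length and GC trends their log2 fold changes were -0.54, -0.34 and -0.10. Crebbp and Ncoa5 had the highest levels of the list, at 83.3 and 47.9 CPM per kb.

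Of the list of chaperones that hold steroid receptors, Hsp90ab1 and Hspa8 had the highest levels, at 1310 and 397 CPM per kb. Others were low, such as Ppid at 1.99 CPM per kb and Dnaja1 with at most 9 counts per sample and ID. These low genes were picked after their values were seen. Ppid and Dnaja1 have 2 and 3 curated transcripts, so the limit on genes with several transcripts given above applies. Of 14 tested IDs, 2 (14.3%, against 11.5% of all tested IDs) had an unadjusted p under 0.05, both higher in males (median log2 fold change 0.12). The 2 were Fkbp4, a co-chaperone of the steroid receptors, and the ubiquitin ligase Stub1, with log2 fold changes of 0.33 (SE 0.14, edgeR adjusted p 0.397) and 0.32 (SE 0.15, edgeR adjusted p 0.430). Both were nearer 0 after removal of length and GC trends, at 0.20 and 0.08. Of the list, 0 IDs were at that threshold without male sample 1 (median 0.01; background 9.49% of all tested IDs), 0 with length and GC trends removed (median 0.08; background 9.46%) and 4 without female sample 3 (median 0.21; background 16.1%).

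Genes that respond to glucocorticoids had a median log2 fold change of 0.01 over 14 tested IDs, and of -0.15 without male sample 1. Of these 14, 1 (7.14%) had an unadjusted p under 0.05, below the 11.5% of all tested IDs. That gene was Ddit4, an inhibitor of mTOR signalling, with 45.0 ± 10.8 CPM in females and 74.2 ± 16.1 CPM in males (SD, n = 3). The fitted fold change of Ddit4, in log2, was 0.71 with SE 0.19, and the edgeR adjusted p of 0.338 did not pass. The study had itself picked Ddit4 from these samples, so it is not independent evidence of a direction. Mt1, a metallothionein, and Ddit4 had the highest levels, at 53.6 and 35.4 CPM per kb.

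**Figure D4:**
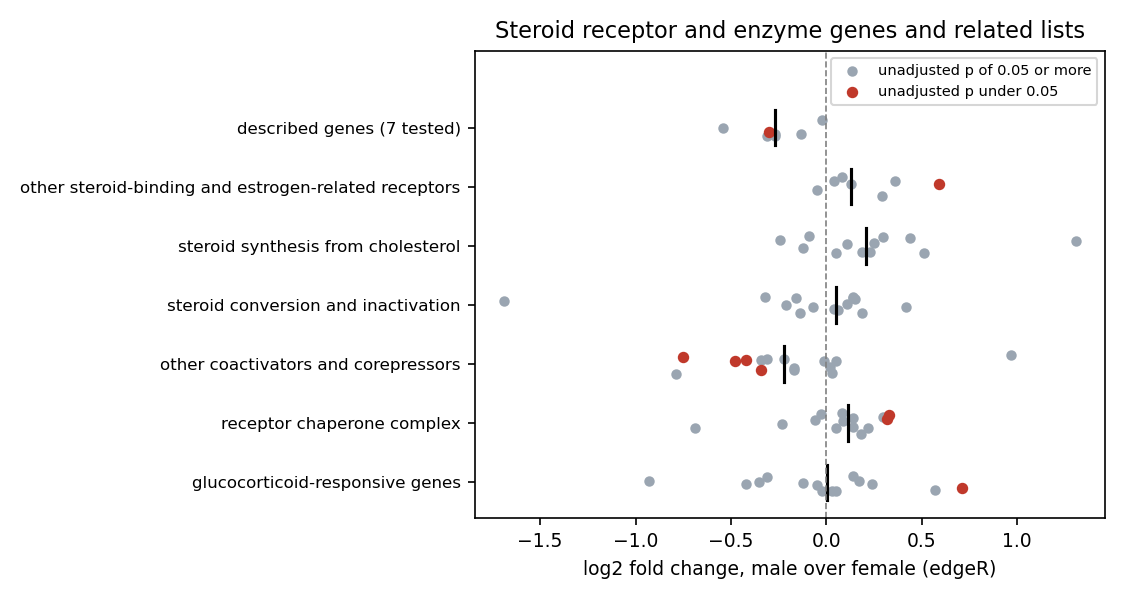
Log2 fold change of male over female for each tested ID of the 10 genes described and of the related lists. Red points have an unadjusted p under 0.05 and black bars are list medians, from -0.27 for the described genes to 0.21 for steroid synthesis (-0.10 and 0.08 with length and GC trends removed). The steroid synthesis points and median include Cyp17a1, which passed the low-count filter through males alone. No point passed the adjusted threshold in edgeR.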

How the data were processed

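RNA-seq of whole brain at E15.5 was analysed for 3 female and 3 male samples, each a pool of RNA from several embryos. According to the study's methods and the submitters' processing notes, reads were trimmed with Trimmomatic 0.32, aligned to mm9 with TopHat2 2.1.1, assembled into a merged transcriptome with Cufflinks 2.2.1 and counted against it with featureCounts 1.5.1. The values deposited by the authors are raw counts per RefSeq transcript ID, without normalisation. The treatment of strand, of reads in several places and of reads shared between transcripts is not given in the sources used here.

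Symbols came from a RefSeq table (GRCm38.p6), which named 99.5% of the IDs and was used for names and promoters. Positions and lengths came from GENCODE vM1 on NCBIM37, the same assembly as mm9, for 91.5% of the IDs, with the longest transcript of the gene as its length. IDs with at least 10 counts in 1 or more samples were compared between the sexes with edgeR's quasi-likelihood F test (edgeR 4.0.16, R 4.3.3, TMM factors, Benjamini-Hochberg adjustment over all tested IDs, two-sided, threshold 0.05). The 7 tested member IDs had at least 10 counts in every sample, so none passed the filter through 1 sex alone. In the related lists some IDs did, among them those of Cyp17a1, Nr0b1, Hsd17b14, Nrip1 and Carm1. They remain in the list counts, shares and medians. Standard errors and 95% intervals were derived from the F statistic and its degrees of freedom. CPM on TMM-scaled totals are given as mean ± SD. The fit was tested on simulated data. Alternatives were RLE and upper-quartile factors, DESeq2 1.42.0, other low-count filters, RUVr factors (unwanted variation estimated from residuals), length and GC trends taken out, IDs of a gene added together, the replicate number as a block and omission of each sample.

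From each related list, IDs called or otherwise up to 3 with the smallest unadjusted p under 0.05, and the 2 highest in CPM per kb, are named. A gene that the rule also names and a marker gene are not reported here. The described genes and lists were chosen with earlier results of these data known. No batch or litter is given in the labels. Pairs of samples of 1 sex differed by 9.03 to 44.9 in chi-square per degree of freedom, far above sampling noise, and each was kept as its own sample. Figures were drawn with matplotlib 3.10.9.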

Additional observations from a re-analysis of the deposited data

How the results depend on the processing

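None of the 7 tested IDs was called in any fit, at an adjusted p under 0.1, or in any of the 119 recomputed fold changes, of which 115 kept their direction. DESeq2 without RUVr factors gave no adjusted p for Pgr, Star and Ncoa2. The direction of Nr3c1 reversed with length and GC trends removed (log2 fold change 0.10). Srd5a1, at -0.02, reversed without a low-count filter (0.00), and over the fits without 1 sample it ran from -0.16 (without male sample 1) to 0.12 (without male sample 2). The 1 ID at an unadjusted p under 0.05, Ncoa1, was 0 with length and GC trends removed, with the replicate block, and without female sample 3, male sample 1 or male sample 2. In the related lists, the count of 0 called IDs became 3 of 36 with DESeq2 (Ddit4, Crebbp and Ncoa6). It was 4 of 75 with edgeR and 2 RUVr factors (those 3 and Esrra). Without a low-count filter it was 2 of 123 (Ddit4 and Ncoa6), where 276 of all 23485 IDs were called. With DESeq2 and 1 RUVr factor it was 3, where 346 were called over all IDs. Across the fits without 1 sample it ran from 0 to 1, the latter being Ncoa6 without female sample 3. That was 1 of 73 list IDs, where 51 of all 13162 tested IDs were called. The cause was not tested. Of these 75 IDs, 8 had an unadjusted p under 0.05, and the other settings gave 5 (with the replicate block, or without female sample 1, female sample 2 or male sample 2) to 12 (with edgeR and 2 RUVr factors, where 21.5% of all tested IDs were under it, against 11.5% in the edgeR fit without such factors). Across the whole table edgeR made 4 calls. DESeq2 made 95, or 346 given 1 RUVr factor. In edgeR, 1 RUVr factor gave 36 calls, 2 gave 475, and keeping low-count IDs gave 276. Omitting female sample 3 gave 51, and omitting male sample 1, 2 or 3 gave 12, 8 or 7. The median over the whole table was -0.06 on upper-quartile factors. With the union of exons as length, the levels of Pgr, Nr3c1 and Ncoa2 became 2.16, 27.6 and 0.448 CPM per kb, and no other level moved by more than its SD.

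Replicate numbers did not pair the samples, since deviations of same-numbered samples from their sex means had correlations of -0.32, -0.04 and -0.27, and no female sample correlated best with the male sample of its own number. With the replicate block, 0 of the 7 IDs and 4 of all tested IDs were called, and the log2 fold change of Ncoa1 was -0.31 (edgeR adjusted p 0.601). Esr1, Esr2 and Cyp19a1 were under the minimum of 10 counts in every sample, and no result is drawn from them.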

Other observations

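The genes whose log2 CPM followed a described gene most closely over the 6 samples were picked as the highest of the 7211 IDs averaging 100 counts or more, so a high correlation was bound to be found and is a description only. Ncoa1 was closest to Ino80, the ATPase of a chromatin remodelling complex (Pearson's r 0.999, n = 6 samples). Nr3c1 was closest to the non-coding RNA 2610507I01Rik (0.996), Nr3c2 to the RNA-binding protein gene Rbm20 (0.994), Srd5a1 to the glycolipid transfer protein gene Gltp (0.994) and Star to Rufy2 (0.994). The 6 samples share the depth and length effects described above, and these values say nothing of shared function.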
